A study of Mus musculus with 34 samples.

Results

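The third block of co-bound peaks is a run of 1889 sites that stands, without a name, between the second and the third empty line of the HDAC3 peak list from mouse liver. The same lines stand at the same place in the PROX1 list. They make up 9.43% of the 20039 sites that both lists share. The first block, which precedes the first empty line, holds 15688 sites (78.3%) and serves here as the comparison. The second block holds 2462 sites. The lists end with peaks of a single factor, 1208 of them HDAC3-only and 7384 PROX1-only. The lists do not say what separates the blocks.

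Livers came from male C57B/6 mice, 10 weeks old, at zeitgeber time (ZT) 10, which is counted from lights on. For HDAC3 and PROX1 the labels name 3 control libraries each, and their genotype and treatment beyond "control" are not labelled. For HNF4α they name 2 libraries from mice with floxed *Hnf4α*, which per the methods received a control virus that expresses EGFP from the hepatocyte promoter TBG and no Cre. Replicates were pooled before peaks were called, so all errors below are counting errors over peaks and the spread between livers cannot be given. HDAC3 and PROX1 peaks are 200 bp wide and carry positions only, whereas every HNF4α peak has a score, which at its lowest is 20.3 over the 3 sets of co-bound peaks. Read depth per library is unknown from these files.

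HDAC3 is a histone deacetylase that works inside the NCoR corepressor complex and is brought to DNA by sequence-specific factors, nuclear receptors above all. PROX1 is a homeobox protein of hepatocytes that binds HDAC3 and can act as a corepressor. HNF4α is a nuclear receptor that maintains hepatocyte gene expression. Rev-erbα, encoded by *Nr1d1*, is a repressor of the circadian clock that recruits NCoR and HDAC3 to a DR2 element or to an extended half-site, which the activators of the ROR family also read. C/EBP, ONECUT, HNF1 and FOXA proteins are other hepatocyte factors with their own short motifs.

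The following windows were chosen for their motif matches, and 51.5% of third-block windows held no HNF4α, C/EBP, DR2 or ROR half-site match. Each window shown is the plus strand of mm9, 200 bp long, with motif matches in capitals. The first 3 have the highest HNF4α scores among third-block peaks that hold an HNF4α motif and could be shown. All third-block windows shown come from 79 peaks whose nearest gene is in a gene list described below, with no base in a UTR and with 1 chromosome left out. The capitals mark the HNF4α motif.
Pck1 (chr2:172995718-172995917): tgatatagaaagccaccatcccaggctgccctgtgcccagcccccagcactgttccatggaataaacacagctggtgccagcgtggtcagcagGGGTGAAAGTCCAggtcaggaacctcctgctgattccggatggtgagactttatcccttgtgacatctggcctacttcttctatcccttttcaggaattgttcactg
Gys2 (chr6:142419661-142419860): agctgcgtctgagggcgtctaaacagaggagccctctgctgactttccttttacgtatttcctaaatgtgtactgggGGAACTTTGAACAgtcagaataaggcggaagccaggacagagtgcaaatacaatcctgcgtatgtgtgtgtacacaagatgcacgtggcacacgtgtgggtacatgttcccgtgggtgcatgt
Gpam (chr19:55219720-55219919): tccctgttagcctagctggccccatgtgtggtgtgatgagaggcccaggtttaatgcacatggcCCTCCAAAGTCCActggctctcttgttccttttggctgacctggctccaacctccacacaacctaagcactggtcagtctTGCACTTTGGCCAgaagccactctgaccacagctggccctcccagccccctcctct
The *Pck1* window lies 17.3 kb downstream of the start of the gene for the gluconeogenic enzyme PEPCK, between genes. It had an HNF4α score of 99.9 and its motif departs from the consensus at 1 position. The *Gys2* window is in an intron, 1.87 kb past the start of the liver glycogen synthase gene, and had a score of 73.5. The *Gpam* window lies 18 kb upstream of the gene for the first enzyme of triglyceride synthesis and had a score of 72.6, with 2 matches on opposite strands.

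The next 3 windows are those of the same 79 peaks that no HNF4α peak touches and whose C/EBP match, in capitals, lies nearest the peak centre. Each match has 2 mismatches, the most allowed, and 2.28% of all third-block windows hold a closer one.
Itgam (chr7:135177236-135177435): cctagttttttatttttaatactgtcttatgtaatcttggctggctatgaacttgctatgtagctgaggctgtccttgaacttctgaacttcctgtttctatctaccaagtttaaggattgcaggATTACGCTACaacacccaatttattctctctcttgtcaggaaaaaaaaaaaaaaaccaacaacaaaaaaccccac
Gnmt (chr17:46863001-46863200): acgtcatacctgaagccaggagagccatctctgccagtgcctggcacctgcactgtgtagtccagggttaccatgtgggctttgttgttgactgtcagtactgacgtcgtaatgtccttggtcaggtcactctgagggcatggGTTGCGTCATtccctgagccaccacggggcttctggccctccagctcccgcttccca
Scarb1 (chr5:125773514-125773713): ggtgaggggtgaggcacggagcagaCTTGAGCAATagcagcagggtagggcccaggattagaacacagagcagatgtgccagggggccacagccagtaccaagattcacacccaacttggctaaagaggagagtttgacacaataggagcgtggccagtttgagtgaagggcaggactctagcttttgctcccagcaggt
They lie 28.8 kb upstream of *Itgam*, an integrin gene of myeloid cells, in an exon of the glycine methyltransferase gene *Gnmt*, and 0.865 kb past the start of *Scarb1*, which encodes the HDL receptor SR-BI. Each match has 2 mismatches to the palindromic C/EBP consensus.

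The last pair from the block shows the closest DR2 matches among the same 79 peaks, each with 2 mismatches, and the single window after them is the first-block peak with the highest HNF4α score chosen the same way, with its HNF4α motif in capitals.
Nr1d1 (chr11:98634341-98634540): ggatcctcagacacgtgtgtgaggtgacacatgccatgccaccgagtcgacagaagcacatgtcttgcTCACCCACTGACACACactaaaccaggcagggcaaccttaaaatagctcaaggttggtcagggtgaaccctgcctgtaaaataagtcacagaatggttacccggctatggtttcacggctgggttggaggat
Cebpb (chr2:167523585-167523784): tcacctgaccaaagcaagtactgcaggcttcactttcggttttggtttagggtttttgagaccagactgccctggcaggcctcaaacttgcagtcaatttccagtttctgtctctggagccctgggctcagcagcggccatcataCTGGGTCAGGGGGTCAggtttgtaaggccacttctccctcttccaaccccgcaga
Ugt1a1 (chr1:90110260-90110459): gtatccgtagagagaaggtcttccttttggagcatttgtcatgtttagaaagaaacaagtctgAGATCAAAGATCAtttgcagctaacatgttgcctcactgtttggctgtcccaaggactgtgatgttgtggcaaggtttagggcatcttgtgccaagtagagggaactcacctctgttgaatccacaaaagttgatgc
The *Nr1d1* window is in an intron, 2.11 kb past the start of the gene of Rev-erbα itself. It holds a DR2 match on the minus strand, 2 matches to the ROR half-site and 1 E-box. The *Cebpb* window lies 9.27 kb past the start of the C/EBPβ gene. Its ROR half-site match overlaps the DR2 match on the same strand, so the pair is not 2 separate elements. No HNF4α peak touches either window. The first-block window, in an intron 1.83 kb past a start site of the bilirubin-conjugating *Ugt1a1*, had an HNF4α score of 130.5, above the highest score among all third-block sites, which was 107.4.

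HNF4α peaks were the clearest difference between the blocks. Of the 1889 third-block sites, 616 were covered over at least 50% of their length by an HNF4α peak, against 10409 of 15688 in the first block. The difference was 33.7 percentage points lower for the third block, 95% CI 31.5 to 35.9 by Newcombe's method (p = 1.5e-180, Pearson's chi-square test over peaks). It had the same sign on all 20 chromosomes, from -40.5 to -22.2 points. Third-block sites held more HNF4α than HDAC3-only sites (14%, difference 18.6 points, 95% CI 15.7 to 21.4, chi-square p = 3.3e-31) and less than PROX1-only sites (36.7%, difference -4.05 points, 95% CI -6.4 to -1.64, chi-square p = 0.0011). The last of these calls was lost when any overlap of 1 bp counted, at 39.2% and 40.3% (difference -1.13 points, 95% CI -3.58 to 1.36, chi-square p = 0.37).

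The HNF4α peaks that were present also had lower scores than in the first block, with medians of 38.2 and 54.2. Medians were 43.3 in the second block, 37.7 at PROX1-only sites and 33.5 at HDAC3-only sites, so low scores were not particular to the third block. Among co-bound sites not covered by an HNF4α peak, the third block made up 16.4% (95% Wilson CI 15.6 to 17.3). At sites whose HNF4α score was at most 30.2 it made up 9.94%, at scores up to 41.9 it made up 7.85%, at scores up to 60.8 it made up 4.55%, and above that 1.93% (CI 1.57 to 2.37). These limits split the whole HNF4α list into 4 classes of like size. Seen from the block, 89 of its sites (4.71%) had a score above 60.8, compared with 26.9% of first-block sites. A score above 80 was found at 25 third-block sites (1.32%) and at 2201 first-block sites (14%). The centre of the HNF4α peak lay a median of 21 bp from the centre of the third-block peak and 18 bp in the first block. The third-block sites that were not covered had their nearest HNF4α peak at a median of 4.5 kb, compared with 2.54 kb in the first block.

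**Figure D1:**
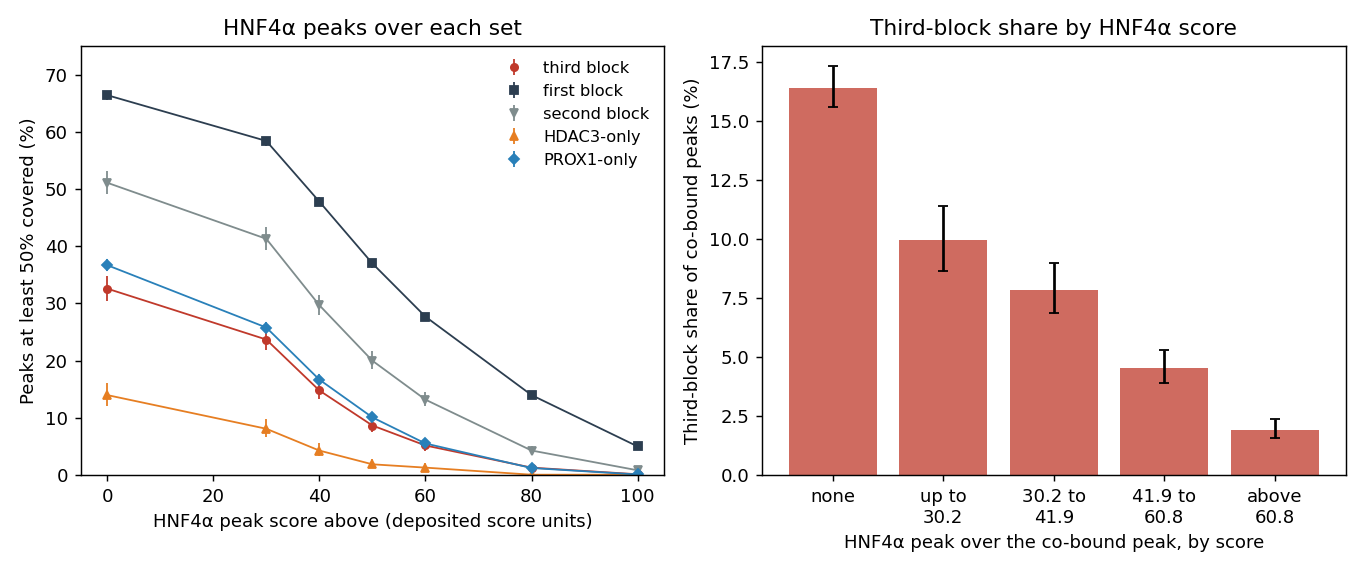
Left, percentage of peaks of each set covered over at least 50% by an HNF4α peak with a score above the value on the x axis. Right, percentage of all co-bound peaks that belong to the third block, by the score of the HNF4α peak over them, in 4 classes of like size over all HNF4α peaks. Bars are 95% Wilson intervals. The third block runs below the first at every score, and its share of co-bound peaks goes from 16.4% with no HNF4α peak to 1.93% at scores above 60.8.

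The 10 third-block sites with the highest HNF4α scores ranged from 91.9 to 107.4. The nearest genes of those described here were *Kctd1*, *Apob*, *Drd4*, *Pck1*, *Ptprf*, *Gfra1*, *Nedd4*, *C8g* and *Hip1r*. The *Apob* site covers the promoter of the gene of apolipoprotein B, the structural protein of VLDL, 0.055 kb from the start, with a score of 101.3. The *C8g* site, 0.315 kb from the start of a complement subunit gene, had a score of 94.2. The sites at the other 7 named genes lay between 12.7 and 61.2 kb from the nearest start site.

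Third-block sites lay closer to genes than first-block sites. A site counted as promoter when its centre was within 1 kb of the start site (TSS) of a protein-coding transcript, and otherwise as exon, intron or intergenic. Promoters held 247 third-block sites (13.1%) and 7.22% of first-block sites, a difference of 5.86 points (95% CI 4.36 to 7.5, adjusted chi-square p = 1.4e-18 over the 4 classes). Intergenic sites were fewer, 37.7% against 43.4% (difference -5.7 points, CI -7.99 to -3.36, adjusted chi-square p = 4.5e-06). The promoter difference had the same sign on 19 of 20 chromosomes and the intergenic difference on 16. Introns held 46.1% and 47.1% (difference -0.991 points, CI -3.36 to 1.39, adjusted chi-square p = 0.42). Exons held 3.12% and 2.29%, a difference of 0.829 points (CI 0.092 to 1.74, adjusted chi-square p = 0.034). A third-block site lay a median of 14.9 kb from a TSS, a first-block site 18 kb and an HDAC3-only site 11.5 kb. Of HDAC3-only sites 19% were promoters, more than in the third block (third-block share less the HDAC3-only share -5.96 points, CI -8.69 to -3.32, adjusted chi-square p = 2.9e-05).

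**Figure D2:**
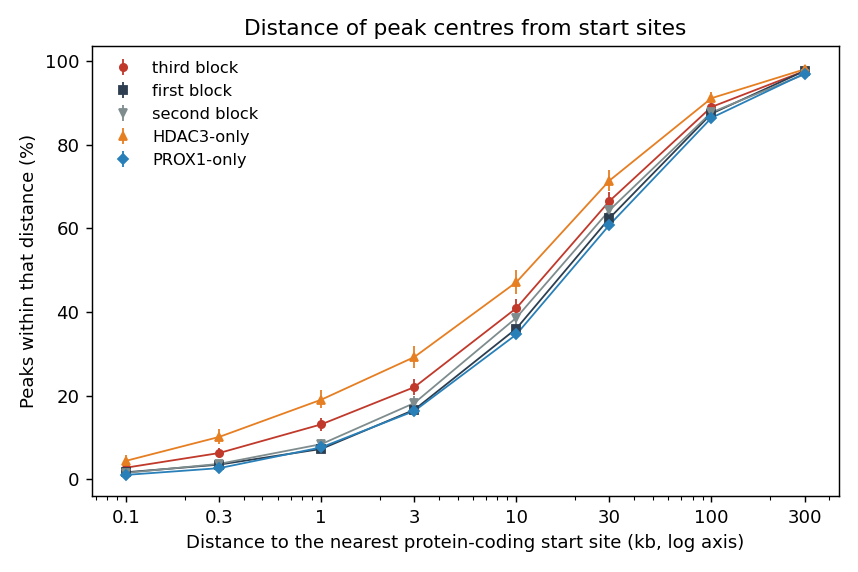
Cumulative percentage of peaks, by distance from the peak centre to the nearest protein-coding start site in kb on a log axis, with 95% Wilson intervals. At 1 kb the third block stands at 13.1%, between the first block at 7.22% and HDAC3-only peaks at 19%, and by 300 kb all sets are close together.

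The lower HNF4α share held both at promoters and away from them. Within 1 kb of a TSS, 76 of 247 third-block sites (30.8%) carried HNF4α, against 62.2% in the first block (difference -31.4 points, CI -37.5 to -24.8). Farther out the shares were 32.9% and 66.7% (difference -33.8 points, CI -36.1 to -31.4).

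Third-block sites were also richer in G and C and less crowded. A GC content of at least 50% was found in 38.4% of third-block windows and 28.8% of first-block windows (difference 9.6 points, CI 7.32 to 11.9, chi-square p = 7.0e-18), with medians of 48% and 46.5%. Another co-bound peak stood within 2 kb of 26.9% of third-block sites and 34.8% of first-block sites (difference -7.85 points, CI -9.94 to -5.68, chi-square p = 9.9e-12). By chromosome, the third block made up between 7.94% and 12.3% of co-bound sites.

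The DNA under the block differed from the first block at 14 of 29 motifs at an adjusted p under 0.05. Of the motifs tested, 7 (24.1%) were more frequent in the third block and 7 (24.1%) less frequent. The 7 more frequent were DR2, the ROR half-site, the plain nuclear receptor half-site AGGTCA, DR4 (a pair of AGGTCA spaced by 4 bases), CTCF, AP-1 (TGACTCA or TGAGTCA) and the E-box CACGTG. The 7 less frequent were HNF4α, C/EBP, ONECUT (TATCGAT or TATTGAT), NR5A2 (CCAAGGCCA, CCAAGGTCA, TCAAGGCCA or TCAAGGTCA), the glucocorticoid response element (GRE, GNACA and TGTNC spaced by 3 bases), the D-box (TTATGCAA or TTATGTAA) and the TEAD motif ACATTCCA. Both strands of the 200 bp window were searched, and windows 2 kb to either side give the level away from the peak. Up to 3 mismatches were allowed for DR2, 2 for HNF4α, C/EBP, HNF1, DR1, DR4 and IR1, 1 for the ROR half-site, NFI and CTCF, and 0 for the others. AGGTCA is part of DR1, DR4 and IR1 and of some forms of the ROR half-site, DR2 and NR5A2. The HNF4α motif is itself a kind of DR1, so matches of these motifs can overlap. DR2 and the ROR half-site share the run TRGGTCA, where R is A or G, so their counts are not independent. Both were in 14 third-block windows (0.741%). A match describes letters and not a bound factor. The blocks were not matched for GC content, which differed as given above, and its part in the motif differences was not tested.

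The other 15 motifs did not pass, with differences from -0.769 to 0.764 points. They were FOXA, HNF1, DR1, IR1, NFI (TTGGC and GCCAA spaced by 5 bases), NRF1, NF-Y (a CCAAT box), STAT (TTCCNGGAA), CRE (TGACGTCA), ETS (CCGGAAGT), PU.1 (GAGGAAGT), YY1 (AAGATGGC), SP/KLF (GGGCGGGG), SRE (TCACNCCAC) and GATA (AGATAAGG). CRE, in 0.582% and 0.3% of windows, and SP/KLF, in 1.32% and 0.822%, had an unadjusted p under 0.05.

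A C/EBP match stood in 312 third-block windows (16.5%) and in 25.7% of first-block windows (difference -9.22 points, CI -11 to -7.35, adjusted chi-square p = 5.2e-17), with 7.04% and 6.88% in the flanks. ONECUT, bound by HNF6 and its relatives, was in 4.61% against 10% (difference -5.41 points, CI -6.39 to -4.27, raw chi-square p = 3.0e-14), and both of these differences had the same sign on all 20 chromosomes. The GRE, bound by the glucocorticoid receptor, was in 12 third-block windows (0.635%) and 269 first-block windows (1.71%). The D-box, read by the clock-controlled PAR bZIP factors and their repressor NFIL3, was in 3.49% and 5.16%. FOXA, TGTTTAC, was in 7.62% and 8.36% (difference -0.734 points, CI -1.93 to 0.619) and HNF1 in 4.29% and 4.19% (difference 0.1 points, CI -0.786 to 1.15). Neither of the last pair passed the threshold.

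DR2 and the ROR half-site, which Rev-erbα reads, were more frequent in the third block. DR2 was in 61 third-block windows (3.23%) and in 1.58% of first-block windows, 2.04 times the share (difference 1.65 points, CI 0.912 to 2.56, adjusted chi-square p = 1.3e-06). With 1 mismatch fewer allowed the call was lost, at 0.529% and 0.28% (difference 0.249 points, adjusted chi-square p = 0.099). By chromosome the DR2 difference ran from -3.09 to 4.19 points and had the same sign on 15 of 20. The flanks held 1.22% and 1.02%. The ROR half-site was in 252 third-block windows (13.3%) and in 9.1% of first-block windows (difference 4.24 points, CI 2.71 to 5.91, raw chi-square p = 3.0e-09). Its difference had the same sign on 19 of 20 chromosomes. DR4, the element of the oxysterol receptors LXR and of the thyroid hormone receptor, was in 7.83% and 6.14%. DR1, AGGTCA repeated after 1 base and read by PPARα and HNF4α, was in 13.9% and 13.1% (difference 0.764 points, CI -0.815 to 2.48). IR1, the inverted repeat read by the bile acid receptor FXR, was in 4.29% and 4.24% (difference 0.0491 points, CI -0.838 to 1.1).

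CTCF, the insulator and loop-anchor protein, had its motif in 70 third-block windows (3.71%) and 266 first-block windows (1.7%), a ratio of 2.19 (difference 2.01 points, CI 1.22 to 2.98, raw chi-square p = 1.7e-09). In the first block this was below the 2.09% of its own flanks, and in the third block it was above the 2.2% of its flanks. The CTCF difference had the same sign on 17 of 20 chromosomes. The E-box of CLOCK:BMAL1 was in 5.35% and 4.02%, and AP-1 in 7.52% and 6.1%.

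For 11 of the 14 motifs that differed from the first block, the third-block share lay between those of the first block and of HDAC3-only sites, the exceptions being AP-1, NR5A2 and TEAD. For 0 of the 14 did it lie between the first block and PROX1-only sites. Against HDAC3-only sites the third block differed at 2 of 29 motifs, while 6 had an unadjusted p under 0.05. DR2 was lower in the third block, 3.23% against 7.45% (difference -4.22 points, CI -5.99 to -2.6, adjusted chi-square p = 3.0e-06), and C/EBP was higher, 16.5% against 11.8% (difference 4.76 points, CI 2.24 to 7.19, adjusted chi-square p = 0.0037). The HNF4α motif was just short of a call, at 25.6% against 21.2% (difference 4.38 points, CI 1.31 to 7.37, adjusted chi-square p = 0.051). Against PROX1-only sites the third block differed at 16 motifs and against the second block at 13. The sets differ in size, with the 1208 HDAC3-only sites the fewest, so the counts of calls do not rank likeness to the third block. In the second block DR2 stood at 0.934% and the ROR half-site at 5.65%, which left the third block higher by 2.3 points (CI 1.45 to 3.24) and 7.69 points (CI 5.94 to 9.51).

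**Figure D3:**
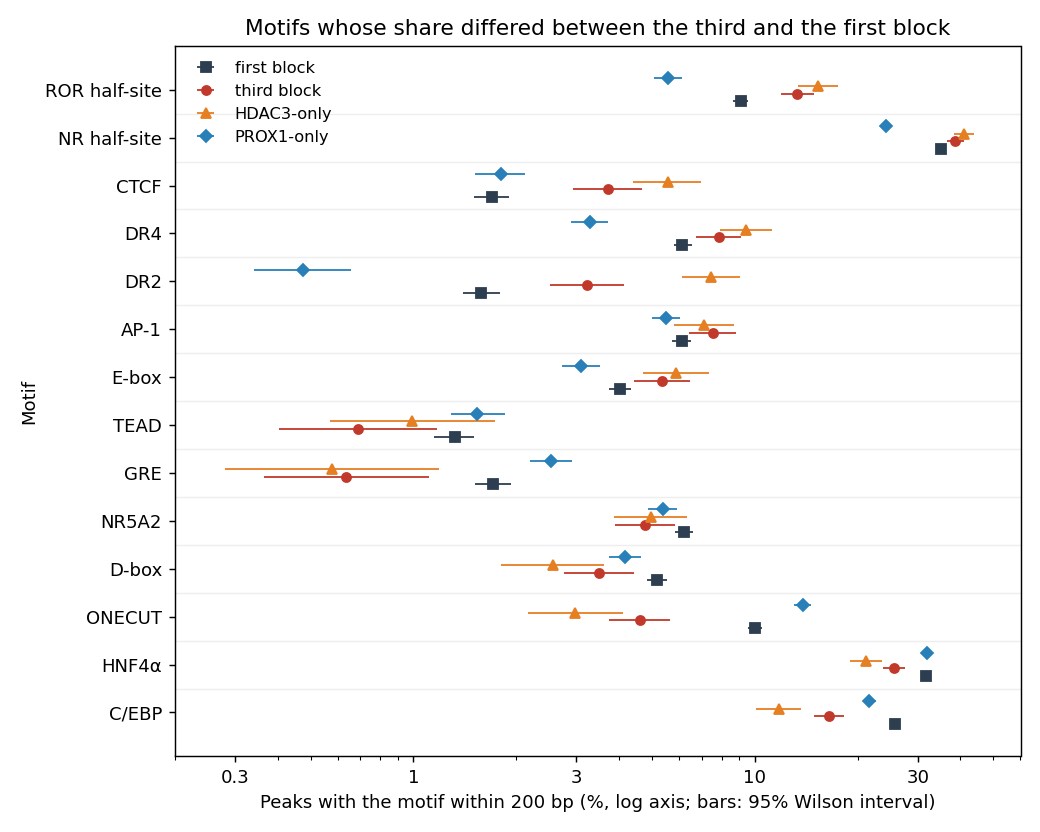
Percentage of 200 bp windows with each of the 14 motifs that differed between the third and the first block, on a log axis, with 95% Wilson intervals. Third-block values stand near those of HDAC3-only peaks for most motifs, for example 4.61% and 2.98% for ONECUT, while first-block values stand on the side of PROX1-only peaks for C/EBP, HNF4α, ONECUT and GRE.

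The HNF4α motif needs to be read with the HNF4α peaks. Over all sites it was in 25.6% of third-block windows and 31.7% of first-block windows (difference -6.13 points, CI -8.18 to -3.99, adjusted chi-square p = 3.1e-07). Among sites with an HNF4α peak it was in 45.1% and 40.3%, higher in the third block by 4.81 points (CI 0.808 to 8.87, chi-square p = 0.018). Among sites with none it was in 16.1% and 14.7% (difference 1.4 points, CI -0.749 to 3.72, chi-square p = 0.21). Both within-class differences have the opposite sign to the pooled one. The pooled share also counts how many sites of each class a block holds, and HNF4α-covered sites, in which the motif is frequent, are fewer in the third block. With an HNF4α peak counted as present from 1 bp of overlap, the differences were 2.51 points (chi-square p = 0.18) with a peak and 2.4 points (chi-square p = 0.034) without. Neither within-class result therefore kept its side of the threshold under that rule.

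C/EBP, ONECUT, CTCF, the ROR half-site and the AGGTCA half-site differed in the same direction with and without HNF4α, at an adjusted p under 0.05 in both classes. C/EBP was lower in the third block with an HNF4α peak (15.7% against 27%, difference -11.2 points, CI -14 to -8.04) and without one (16.9% against 23.3%, difference -6.37 points, CI -8.65 to -3.94). ONECUT was lower in both classes, by 7.27 points with and 3.27 points without. CTCF was higher in both, 4.55% against 1.71% with and 3.3% against 1.67% without. So was the ROR half-site, at 11.9% against 8.94% with (adjusted chi-square p = 0.027) and 14.1% against 9.4% without (adjusted chi-square p = 4.9e-06). The AGGTCA half-site was in 43.3% against 37% with and in 36.4% against 30.9% without. DR2 was higher among sites without HNF4α (3.77% against 1.72%, difference 2.05 points, CI 1.05 to 3.28, adjusted chi-square p = 2.0e-05 over 11 motifs). With HNF4α it was in 2.11% and 1.51% (difference 0.602 points, CI -0.307 to 2.08, adjusted chi-square p = 0.26). Inside the block, sites with and without HNF4α differed in the HNF4α motif (45.1% against 16.1%), DR1 (21.1% against 10.4%) and the AGGTCA half-site (43.3% against 36.4%, adjusted chi-square p = 0.039 over 30 features), and at none of the other 27 features tested. Of those 27, 4 had an unadjusted p under 0.05.

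HNF4α matches lay a median of 36.5 bp from the peak centre in the third block and 34.5 bp in the first, C/EBP matches 32.5 and 29 bp, and DR2 matches 36 and 42 bp. ROR half-site matches lay 46.5 and 45.5 bp away and CTCF matches 50 and 49.5 bp. Within 30 bp of the centre lay 48.4% of third-block C/EBP matches (CI 42.9 to 53.9). For the ROR half-site this was 31.7% (CI 26.3 to 37.7) and for CTCF 30% (CI 20.5 to 41.5), so these matches were less central. Of third-block windows, 738 (39.1%, CI 36.9 to 41.3) held an HNF4α or C/EBP match, compared with 50.7% in the first block (CI 50 to 51.5). A DR2 or ROR half-site match with neither of those was in 178 third-block windows (9.42%, CI 8.19 to 10.8) and in 5.12% of first-block windows (CI 4.79 to 5.48). None of the 4 motifs was in 973 third-block windows (51.5%).

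Shares varied with the order of the lines inside the block, although the lists state no order. The lines were split in their order into 5 parts of like size. In the first 377 lines of the third block 40.8% of sites had an HNF4α peak, in the last 378 lines 25.9% (difference 14.9 points, CI 8.21 to 21.5, chi-square p = 1.4e-05). The ROR half-site was in 22.5% of windows of the first part and 9.52% of the last (difference 13 points, CI 7.84 to 18.2, chi-square p = 1.1e-06). DR2 was in 7.43% and 1.32% (difference 6.1 points, CI 3.27 to 9.29, chi-square p = 4.1e-05). Over all 5 parts the chi-square p was 5.6e-04 for HNF4α, 8.7e-08 for the ROR half-site and 6.7e-06 for DR2. ONECUT stayed between 4.24% and 4.76% in each of the 5 parts, and the promoter share between 11.4% and 14.3%. The median HNF4α score of the covered sites was between 37 and 39.6 in each part.

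In the first block the same shares varied little with line order, with HNF4α between 65.9% and 66.7% (chi-square p = 0.96 over the 5 parts), the ROR half-site between 8.64% and 10% (chi-square p = 0.33) and DR2 between 1.47% and 1.82% (chi-square p = 0.83). HDAC3-only lines showed the order for DR2, from 17% in the first part to 2.48% in the last (chi-square p = 9.9e-09), and for the ROR half-site, from 21.6% to 8.68% (chi-square p = 3.4e-04). Their HNF4α share was 15.4% in the first part, highest in the middle part at 18.3% and lowest in the last at 8.26% (unadjusted chi-square p = 0.028 over the 5 parts). In PROX1-only lines the HNF4α share went from 47.9% in the first part to 24.8% in the last (chi-square p = 9.4e-45). In the last part of the third block DR2 and the ROR half-site were thus at 1.32% and 9.52%, close to 1.58% and 9.1% over the whole first block. The choice to look at line order was made after the data were seen.

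**Figure D4:**
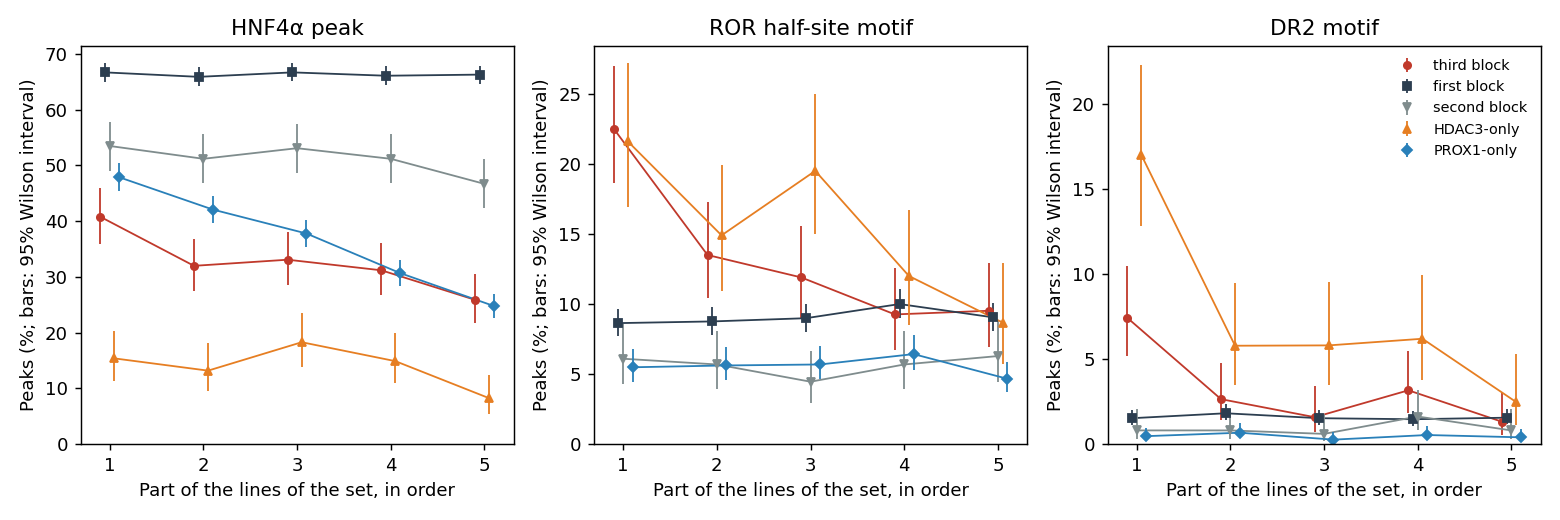
Percentage of peaks with an HNF4α peak, a ROR half-site or a DR2 motif in each of 5 parts of the lines of each set, in the order deposited, with 95% Wilson intervals. In the third block all 3 shares are highest in the first part (40.8%, 22.5% and 7.43%), while the first block stays level.

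The 1889 sites were assigned to the nearest protein-coding TSS within 100 kb, which 1682 of them had. They fell to 1393 genes, or 6.22% of 22380 protein-coding genes, whereas the first block fell to 5252 genes (23.5%). Most genes had a single third-block site (1174 genes), and 14 had 4 or more. Of the 1393 genes, 990 (71.1%) were also nearest to a first-block site, which is 18.8% of the first-block genes, and 367 had no other co-bound site. Of the 1682 assigned sites, 1228 (73%, CI 70.8 to 75.1) were at a gene that a first-block site also marks.

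The genes with the most third-block sites were *4933407C03Rik* with 6, *Epha2*, an ephrin receptor gene, with 5, and 12 genes with 4 each. In alphabetical order the first 7 of those are *Arhgef12*, *Cebpb*, *Ehhadh*, *Ergic1*, *Fgf1*, *Hspb8* and *Litaf*. *Arhgef12*, a guanine nucleotide exchange factor gene, had 4 third-block sites and 0 first-block sites. *Cebpb* had 4 third-block sites, 8 first-block sites and 4 HDAC3-only sites, and 0 of its 4 third-block sites were covered by HNF4α. *Ehhadh*, of peroxisomal β-oxidation, had 4 third-block and 5 first-block sites, with HNF4α at 2 of the 4. *Litaf*, a lysosomal membrane protein gene, had 4 third-block and 6 first-block sites, with HNF4α at 0 of the 4.

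Gene lists compiled from general knowledge are described by counts alone, beside the 6.22% of all protein-coding genes that had a third-block site and the 23.5% that had a first-block site. Of circadian clock genes, 9 of 19 (47.4%) had a third-block site, and 16 of 19 had a first-block site. Counted by site, clock genes had 10 third-block and 62 first-block sites, of which the third block made up 13.9%. Over all sites within 100 kb of a TSS, the third block held 1682 and the first block 13711. A high share of genes therefore need not mean a high third-block part of their sites. The activators *Arntl* (BMAL1), *Clock* and *Npas2*, the repressors *Per3*, *Cry1*, *Nr1d1*, *Nfil3* and *Bhlhe40* and the receptor *Rora* were the 9. *Arntl* had 2 third-block sites in an intron, 53.4 and 54.4 kb past the start, and 2 HDAC3-only sites, with 0 sites of the other blocks. HNF4α covered 1 of that pair, with a score of 30.2. *Per3* and *Npas2* had theirs at the promoter, 0.618 and 0.949 kb upstream of the start. HNF4α covered 2 of the 10 third-block sites at clock genes, the other at *Nfil3*.

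For glucose and glycogen the count was 5 of 14 (35.7%), namely *Pck1*, *Pygl* (glycogen phosphorylase), *Gys2*, *Ppp1r3b* and *Ppp1r3c*. For amino acid breakdown and the urea cycle it was 8 of 23 (34.8%), among them *Ass1* and *Arg1* of the urea cycle and *Tat*, whose site lay at 0.018 kb from the start. For fatty acid oxidation and ketogenesis it was 6 of 22 (27.3%), with *Ppargc1a*, the coactivator PGC-1α, and *Pdk4*, a brake on glucose oxidation, which had 2 promoter sites. For the genes of triglyceride synthesis and lipid droplets, on which the study centres, it was 4 of 24 (16.7%; 10 of 24 by the gene window described below), *Gpam*, *Lpin2*, *Gpd1* and *Mfsd2a*, and for de novo lipogenesis 2 of 15, *Acaca* and *Mlxipl* (ChREBP). Both lipogenic sites carried HNF4α, with scores of 40.5 and 49.5. In these 5 lists the first-block share lay between 79.2% and 100%. Of the third-block and first-block sites at these genes, the third block made up 7.14%, 9.2%, 13.6%, 8.45% and 3.45%, in the order given.

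Among the other lists, of hepatocyte transcription factor genes 7 of 20 (35%) had a third-block site, with HNF4α at 2 of their 12 sites. The third block made up 9.23% of the third-block and first-block sites of that list. Of genes of the NCoR-HDAC3 complex 2 of 6 had a third-block site, with HNF4α at 2 of their 6 sites. Those with HNF4α were the 2 sites of the corepressor gene *Ncor1*. Cholesterol genes were at 3 of 17, with 3 sites at the cholesterol exporter gene *Abca1*, and xenobiotic genes at 3 of 17. Bile acid genes were at 0 of 12, although 12 of 12 had a first-block site. Plasma proteins were at 3 of 29 (10.3%) and apolipoproteins at 1 of 15 (*Apob*, 3 sites, all with HNF4α). The coagulation factor genes *F10* and *F12* had a third-block site and no other co-bound site, at 0.496 and 2.67 kb upstream of the start. Oxidative phosphorylation (1 of 25) and ribosomal protein genes (2 of 25) were near the background of 6.22%. Markers of Kupffer cells and leukocytes, of endothelial cells and of cholangiocytes were at 1 of 12 (*Itgam*), 1 of 12 (*Eng*) and 1 of 10 (*Prom1*), and markers of stellate cells at 0 of 12. In the same order, 0 of 12, 7 of 12, 5 of 10 and 1 of 12 of these markers had a first-block site. Several counts depended on how sites were assigned. When a site counted for every gene whose span from 50 kb upstream to 2 kb past the end it fell in, 10.3% of all protein-coding genes had a third-block site. The count was then 10 of 24 for triglyceride synthesis and lipid droplets, 5 of 15 for apolipoproteins, 6 of 29 for plasma proteins, 4 of 25 for ribosomal proteins and 2 of 12 for endothelial markers, while clock genes stayed at 9 of 19.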

How the data were processed

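ChIP-seq peak lists for HDAC3, PROX1 and HNF4α were used. Per the labels and methods, the authors mapped the reads on mm9 (Bowtie 0.12.7), pooled replicates and called peaks with HOMER against IgG. They kept peaks by enrichment and normalized reads and removed HNF4α peaks that remained in the knockout. For co-binding the paper asked for a minimum overlap and a minimum signal of the other factor, set below the calling cutoffs. A co-bound site therefore need not pass the cutoff of both factors. The lists do not say whether the blocks follow this rule. The deposited HNF4α list carries a HOMER score, the only measured unit used. RNA-seq, H3K27Ac and *Hnf4α* knockout data were not analysed here.

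Blocks were split at empty lines. Windows came from NCBIM37 (mm9) and genes from GENCODE M1. HNF4α counted as present when 1 peak covered at least 50%. Motifs were matched to 29 consensuses. Shares carry 95% Wilson intervals and differences Newcombe intervals, compared by two-sided Pearson chi-square tests with Benjamini-Hochberg adjustment over 4 location classes or 29 motifs. Neighbouring peaks are not independent. Intervals cover counting error only. Matching and tests were tested on simulated data (Python 3.11.15, numpy 2.4.6, scipy 1.17.1, matplotlib 3.10.9). Members and lists were chosen with earlier results of these data known. Of 331 listed gene names 329 matched. Genes named are those with most third-block sites, those at the highest HNF4α scores and list members. Some genes that these rules select are not reported here.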

Additional observations from a re-analysis of the deposited data

How the results depend on the processing

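Of 81 recomputed values, 77 kept their direction and their side of the threshold. Of these, 6 concern line order and were chosen after seeing the data (all 6 kept both). The HNF4α, promoter, intergenic, C/EBP, HNF4α motif, GC and crowding differences kept both under every alternative run. The count of 14 motifs ranged from 11 to 15, and the 59 list members with a third-block site from 56 (within 50 kb) to 79 (gene window). With 1 mismatch fewer the DR2 difference was 0.249 points (adjusted chi-square p = 0.099), with few matches left (0.529% against 0.28%). With 1 bp of overlap the HNF4α motif difference was 2.4 points without an HNF4α peak and 2.51 points with one. Against the second block, the HNF4α motif difference with an HNF4α peak was -3.56 points (chi-square p = 0.15). The cause was not tested. The share of repeat-masked centres was not run, since the genome used has 0 lower-case bases in these windows. No paired analysis was possible because the lists come from pooled replicates. Leaving out a replicate was not possible for the same reason. The lists hold no depth, so a site below the calling limit cannot be told from one without the factor.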
